A study of Mus musculus with 24 samples.

Results

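The aminoacyl-tRNA synthetases were followed through the first cleavages of mouse embryos with and without knockdown of the endogenous retrovirus MERVL. Members were chosen by name, as the nuclear genes that charge tRNAs in the cytosol or in mitochondria together with the scaffold proteins of the multisynthetase complex. All 39 listed members were in the counts, 20 cytosolic synthetases, 16 mitochondrial synthetases and 3 scaffold genes, among 55291 genes and 1035 repeat families. Every member held at least 1 count in every library and passed the filter on low counts in every comparison.

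Each synthetase joins its own amino acid to the matching tRNAs and so supplies translation with its substrates. In animals a group of the cytosolic enzymes is held in a multisynthetase complex by the scaffold proteins Aimp1, Aimp2 and Eef1e1, while most mitochondrial synthetases have nuclear genes of their own. Gars and Kars each encode both the cytosolic and the mitochondrial enzyme and are counted here as cytosolic. Early mouse embryos degrade maternal transcripts and turn on their own genome around the 2-cell stage, when MERVL and its LTR promoter MT2_Mm are also transcribed.

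The study asked what loss of MERVL RNA does to preimplantation development, using antisense oligonucleotides (ASOs), which direct cleavage of the RNA they bind. Zygotes of B6D2F1 (BDF1) parents aged 8 weeks had been injected into the male pronucleus with 20 µM of ASO and cultured in KSOM, and the embryos carry the strain label BDF2. MERVL-KD embryos had received a mixture of 3 ASOs against MERVL, and control embryos a scrambled ASO, so that injection and culture were common to all groups. Total RNA was sequenced from pools of 30 embryos without zona pellucida, with 2 libraries per group, control or MERVL-KD, for embryos of 2, 4 and 8 cells. The labels place the 2-cell libraries at 1.5 days post-coitum and both later stages at 2.5 days, so the last 2 stages are told apart by cell number only. Library totals ran from 28167085 to 41482526 counts, and the members together held between 0.209% and 0.388% of a library's gene counts. In a library the raw count of a member lay between 26 (Aars2) and 34703 (Lars2), with a median of 878. Libraries of a group differed by more than counting error, with a ratio of observed to counting variance (chi-square per degree of freedom) between 14.7 and 25.8 in the 6 groups.

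The knockdown target came first as a check on the labels. Levels are TMM-scaled CPM (counts relative to library totals that are adjusted by TMM factors) unless stated, the first value for library 1 and the second for library 2 of a group. MERVL-int, the internal part of MERVL, stood at 67693 and 74781 in the control libraries and 1324 and 1228 in the knockdown libraries of 2-cell embryos, at 20321 and 17412 against 493 and 319.6 in 4-cell embryos and at 12222 and 12012 against 277 and 295 in 8-cell embryos. MT2_Mm stood at 4829 and 5328 against 766 and 889, at 1459 and 1298 against 445 and 440.1 and at 1064 and 1031 against 533 and 490.2 at the same stages. Every knockdown library was below both controls of its stage for both repeats, as the labels say. The log2 fold changes of MERVL-int were -5.72 ± 0.08, -5.53 ± 0.25 and -5.40 ± 0.08 (SE, n = 2 libraries per group; edgeR, p adjusted over all genes and repeat families by Benjamini and Hochberg, adjusted p = 1.3e-16, 1.0e-04 and 2.4e-12).

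Iars is the member that carries a copy of the target. The scan allowed up to 4 mismatches and used GRCm38 coordinates. Iars (chr13:49682100-49734267, plus strand) has a MERVL copy of 5287 bp in its intron 7, at chr13:49694289-49699575, in the same direction as the gene and 12189 bp from its start. Of the 34 exons, 7 lie before the copy with 961 bases and 27 after it with 4311 bases. In this copy MERVL-ASO3 pairs without mismatch at chr13:49696141-49696160 and MERVL-ASO1 with 1 mismatch at chr13:49694355-49694374, a substitution A17C counted from the 5′ end of the site. The ASOs are shown with their sites because no other member holds a site with fewer than 4 mismatches, and the capital marks the mismatch.
MERVL-ASO1: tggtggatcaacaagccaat
MERVL-ASO1 site in Iars: attggcttgttgatccCcca
MERVL-ASO3: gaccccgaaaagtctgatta
MERVL-ASO3 site in Iars: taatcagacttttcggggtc

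Sites with 4 mismatches lay in an exon of Eprs, in intron 2 of Lars, in intron 1 of Wars2 and, on the other strand, in intron 18 of Iars.

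Stage markers were summed over fixed lists. The 10 listed 2-cell markers, with Zfp352 or Usp17lc most abundant at that stage, had a sum of 816 and 731 in control 2-cell embryos, and of 414 and 513 with knockdown. They summed to 107 and 116 against 103 and 96.4 in 4-cell embryos and 85.2 and 89.3 against 58.1 and 84.8 in 8-cell embryos, with Gm6763 at 0 in every library and Tdpoz4 the most abundant, at 84.0 and 88.0 against 72.9 and 83.4 and 77.2 and 79.7 against 49.1 and 70.6. The 11 oocyte markers in the files, led by Btg4 at the 2-cell stage, summed to 3099 and 2857 in the control libraries against 1697 and 2048 in the knockdown libraries of 2-cell embryos. Both lists were thus lower in both 2-cell knockdown libraries than in both controls. At the later stages the oocyte markers, with Btg4 or Nlrp5 most abundant, summed to 229 and 239 against 209 and 219 and 186 and 197 against 174 and 156, and Oosp2 was at 0 in a single control 8-cell library. The 12 listed 8-cell markers, led by Dab2 or Tfap2c, summed to 232 and 215 against 199 and 212, then 267 and 275 against 273 and 291, then 352 and 340.1 against 279 and 292, with Lgals1 at 0 in a single control 4-cell library. These sums follow the most abundant genes and do not show the other listed genes. In controls from the 2-cell to the 8-cell stage, 6 of the 12 8-cell markers were called higher and 5 lower (edgeR). The shares over all genes were 22.0% and 26.9%. As a set this list therefore does not mark the 8-cell stage in these data. In 2-cell embryos 8 of the 12 8-cell markers were higher with knockdown and 4 lower (median log2 fold change 0.25, edgeR). In that list 1 passed higher and 0 lower, beside 6.70% and 7.39% of all genes. The 9 tested 2-cell markers had 5 higher and 4 lower in 8-cell embryos (median 0.24), with 0 past the test. In 4-cell embryos 4 of the 12 8-cell markers passed higher in MERVL-KD embryos and 1 lower, with a median log2 fold change of 0.96 (edgeR), beside 4.92% and 5.84% of all genes. Of the 11 oocyte markers 6 were higher and 5 lower there (median 0.23), and of the 9 tested 2-cell markers 5 were higher and 4 lower (median 0.19), with 1 of each list passing lower (edgeR). Of 14 cumulus and granulosa cell markers, 1 to 8 were at 0 in a library, and their sum stayed between 27.0 and 41.3 with Amhr2 most abundant. Of 7 sperm markers, 2 to 5 were at 0, and their sum lay between 0.290 and 2.04, led by Prm1 or Prm2. What part a difference in developmental pace has in the results for the members was not tested. In bulk libraries, fewer cells that carry an RNA and less of that RNA per cell cannot be told apart.

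In control 2-cell embryos the members differed widely in abundance. Levels are compared between genes as CPM per kilobase of gene length, here without TMM (mean ± SD over 2 libraries). The median over the 39 members was 2.11, with 4.94 for the cytosolic enzymes and 0.658 for the mitochondrial ones, beside 0.326 over all genes with a count. Highest among the cytosolic enzymes were Iars (35.6 ± 0.772), which charges isoleucine, Kars (27.6 ± 1.42), the lysyl enzyme, and Rars (18.5 ± 1.85), the arginyl enzyme. Lowest were Vars (0.285 ± 0.0726), which charges valine, Lars (0.699 ± 0.00628), the leucyl enzyme, and Cars (1.24 ± 0.0526), the cysteinyl enzyme. In this order 6 of the 19 neighbouring cytosolic pairs had overlapping libraries, among them Rars and Qars, whereas the libraries of Iars were apart from those of Kars, and those of Kars from those of Rars.

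The mitochondrial enzymes were led by Lars2 (70.5 ± 2.42), followed by Fars2 (2.78 ± 0.0288) and Mars2 (1.83 ± 0.126), the leucyl, phenylalanyl and methionyl enzymes of mitochondria. Nars2 (0.164 ± 0.0160), Aars2 (0.254 ± 0.129) and Wars2 (0.351 ± 0.000738) were lowest, and 7 of the 15 neighbouring pairs overlapped. Lars2 alone took from 18.0% to 43.5% of all member counts of a library. Among the scaffolds Aimp2 (13.1 ± 1.02) was above Eef1e1 (2.84 ± 0.138), and both were above Aimp1 (0.403 ± 0.0888), with no overlap between neighbours. Aimp2 shares 29.4% of its exon bases with the antisense gene Eif2ak1, and the strand setting of the counting is not stated, so its level is uncertain. Smaller shares of antisense overlap, none above that of Iars2 (22.9% with Rab3gap2), were found for other members, among them Farsb, Vars2, Hars, Fars2, Cars2, Hars2 and Nars2. Aars shares 14.3% with Exosc6 on the same strand, and Exosc6 held 0 counts in all libraries.

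**Figure D1:**
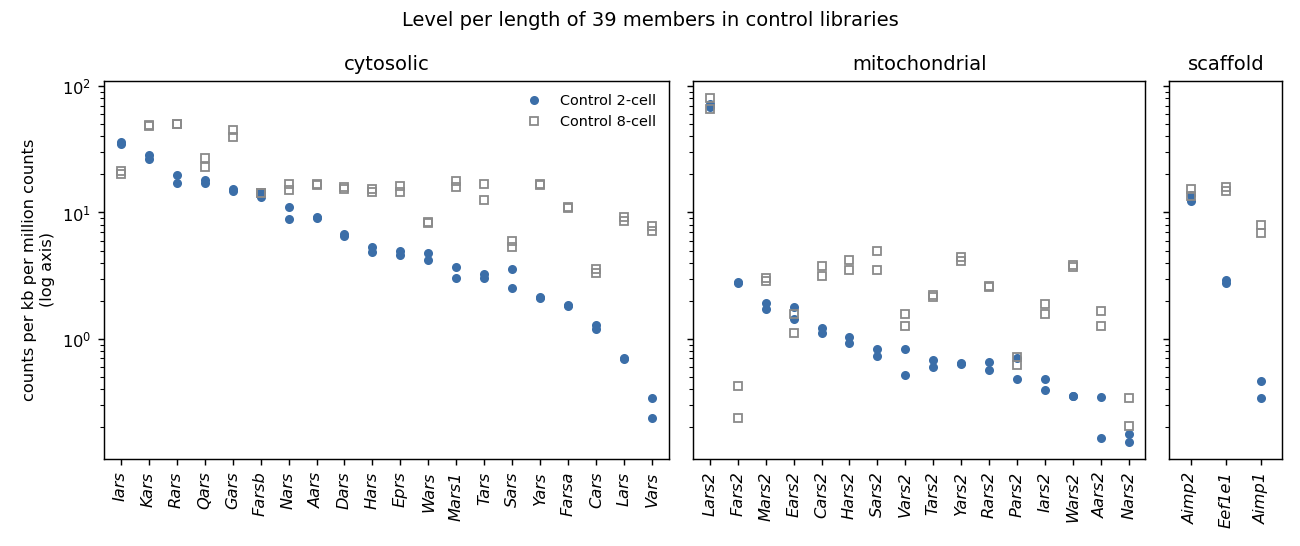
CPM per kilobase (log axis) of each member in the control 2-cell libraries (filled circles) and control 8-cell libraries (open squares), cytosolic, mitochondrial and scaffold genes in order of their 2-cell level. Iars leads the cytosolic enzymes at the 2-cell stage with 35.6, and Lars2 stands above all other mitochondrial enzymes at both stages.

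From the 2-cell to the 4-cell stage, control embryos gained transcripts of most synthetases. By the rule of adjusted p under 0.05 with at least a 2-fold change, 24 of 39 members rose and 1 fell, beside 20.7% of all genes tested that rose and 24.3% that fell (edgeR, fit of all 12 libraries). At an adjusted p under 0.05 with any fold, 32 rose and 3 fell, beside 26.4% and 28.7% of all genes. The median log2 fold change was 1.50 over the members and -0.06 over all genes tested. The rise was shared by the classes, with 12 of 20 cytosolic, 10 of 16 mitochondrial and 2 of 3 scaffold genes called higher and medians of 1.32, 1.54 and 2.07. Among the 19 class I enzymes 12 were called higher, and among the 17 class II enzymes 10, the classes being defined by the fold of the catalytic domain.

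Between the 4-cell and the 8-cell stage the controls changed little by this measure. Both groups carry the label of 2.5 days, so stage and pace of cleavage cannot be told apart in this step. No member was called, that is 0 of 39, beside 0.474% of all genes called higher and 1.09% lower (edgeR; 0 also with DESeq2), while 11 members had an unadjusted p under 0.05. At an adjusted p under 0.05 with any fold 1 member was higher and 0 lower, beside 3.19% and 2.68% of all genes, and DESeq2 gave 10 members in all. The median was 0.20 over the members and -0.01 over all genes. Over the whole course from the 2-cell to the 8-cell stage, 24 members rose and 1 fell, beside 22.0% and 26.9% of all genes, with medians of 1.53 and -0.13. With any fold, 31 rose and 2 fell, beside 27.2% and 30.8% of all genes. When libraries were scaled by their size alone, the median of all genes moved by 0.16 for the earlier step and by -0.20 for the later, and the members' medians relative to it were 1.51 and 0.19. In that setting the share of higher genes among those called in the later step went from 30.4% to 8.22%.

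Vars, lowest of the cytosolic enzymes at the start, stood at 1.40 and 2.15 in control 2-cell, 32.8 and 25.7 in 4-cell and 50.3 and 44.6 in 8-cell embryos. The stages did not overlap, and from the 2-cell to the 8-cell stage Vars rose by 4.73 ± 0.22 in log2 (edgeR adjusted p = 5.6e-14). Vars was also the member that passed the test from the 4-cell to the 8-cell stage (0.70 ± 0.17, edgeR adjusted p = 0.02). That call was lost without control 4-cell library 2 (0.54, adjusted p = 0.22), control 8-cell library 1 (0.14) or control 8-cell library 2 (0.053), within a range of 0.03 to 0.22 over left-out libraries (edgeR). It was also lost with library size alone (0.49, adjusted p = 0.085; edgeR and DESeq2 range over such alternatives 8.2e-04 to 0.085), where 0 members passed higher and Iars passed lower (-0.53, adjusted p = 0.0019; range 0.0019 to 0.17). Aimp1 stood at 2.04 and 2.97, then 39.3 and 33.5, then 51.5 and 43.5 in the controls of the 3 stages and rose by 4.23 ± 0.20 from the first to the last (edgeR adjusted p = 7.1e-14). Lars stood at 3.99 and 4.29, 49.1 and 42.2 and 56.3 and 51.4 and rose by 3.70 ± 0.17 (edgeR adjusted p = 4.2e-14). For both genes the 2-cell controls lay far below all later controls, with the 8-cell controls slightly above the 4-cell ones. These 3 had the largest rises from the 2-cell to the 8-cell stage among the members.

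Among other cytosolic members with extreme levels, Kars stood at 127 and 145, 225 and 221 and 251 and 239.9 in the controls of the 3 stages, a rise of 0.85 ± 0.10 from the 2-cell to the 8-cell stage (edgeR adjusted p = 1.9e-07). Rars stood at 59.4 and 72.8, 182 and 174 and 185 and 179.6, a rise of 1.46 ± 0.11 (edgeR adjusted p = 1.0e-10). Cars stood at 8.48 and 9.58, 25.0 and 23.2 and 27.1 and 24.2, a rise of 1.50 ± 0.18 (edgeR adjusted p = 2.7e-07). In each of the 3 genes both 2-cell controls were below every later control. The scaffold Eef1e1 rose in the same way, from 9.57 and 10.9 to 44.7 and 41.1 and 55.6 and 57.9 (2.47 ± 0.15, edgeR adjusted p = 3.8e-12). Aimp2 did not pass the test, with 24.5 and 23.4, 24.0 and 23.0 and 29.2 and 24.7 (0.17 ± 0.17, edgeR adjusted p = 0.41).

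A few members went the other way. Fars2 stood at 16.9 and 18.3 in control 2-cell, 2.18 and 3.37 in 4-cell and 2.76 and 1.51 in 8-cell embryos, so every later library was below both 2-cell libraries. Its change from the 2-cell to the 8-cell stage was -3.05 ± 0.31 (edgeR adjusted p = 2.4e-08), the only member called lower over the course. Iars was the only cytosolic enzyme that passed the test as lower in the control course (edgeR), from 198 and 217 to 157 and 153 and 129 and 119 in the controls, with no overlap between stages. The change of Iars was -0.74 ± 0.10 over the course (edgeR adjusted p = 1.2e-06), short of 2-fold. Ears2, the glutamyl enzyme of mitochondria, had 9.79 and 8.42, 6.67 and 10.3 and 9.21 and 6.40, which overlap, and did not pass the test (-0.22 ± 0.26, edgeR adjusted p = 0.48). Lars2 stood at 856 and 868, 685 and 487 and 833 and 995, with its 4-cell controls lowest and far apart from each other, and its 2-cell to 8-cell change was 0.08 ± 0.18 (edgeR adjusted p = 0.71). Its fall from the 2-cell to the 4-cell stage (-0.56 ± 0.18, edgeR adjusted p = 0.021) was lost without control 2-cell library 1 (0.13), control 2-cell library 2 (0.16) or control 4-cell library 2 (0.12; range over left-out libraries 6.3e-04 to 0.16).

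Of the remaining mitochondrial enzymes with extreme levels, Wars2, the tryptophanyl enzyme, rose from 2.23 and 2.37 to 17.9 and 16.5 and 26.0 and 24.4 (3.45 ± 0.23, edgeR adjusted p = 2.1e-11). Aars2, the alanyl enzyme, rose from 0.829 and 1.87 to 6.13 and 8.65 and 6.89 and 8.78 (2.52 ± 0.35, edgeR adjusted p = 2.6e-06). Mars2 rose from 23.1 and 22.3 to 32.7 and 30.9 and 39.2 and 35.8 (0.72 ± 0.15, edgeR adjusted p = 2.9e-04). In these 3 genes the 2-cell controls were below all later ones. Nars2, the asparaginyl enzyme, held 1.31 and 1.21, 2.95 and 4.41 and 2.72 and 1.57, and rose from the 2-cell to the 4-cell stage (1.54 ± 0.42, edgeR adjusted p = 0.0036), a call lost without control 4-cell library 2 (0.053; range over left-out libraries 0.0033 to 0.053). Its 2-cell to 8-cell change did not pass the test (0.77 ± 0.42, edgeR adjusted p = 0.13).

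**Figure D2:**
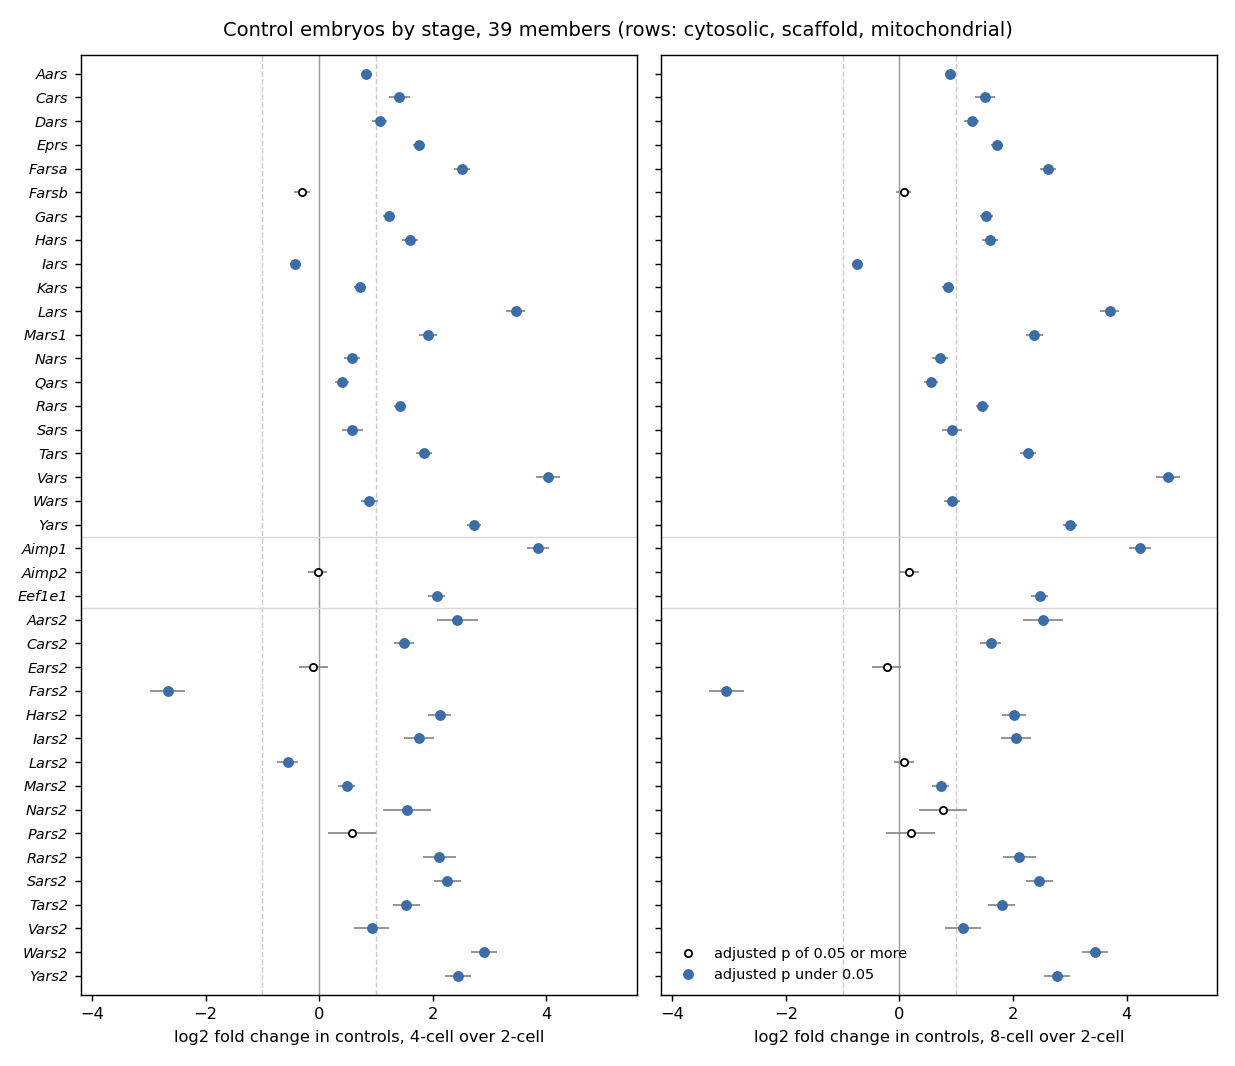
Log2 fold change ± SE of each member in control embryos from the 2-cell to the 4-cell stage (left) and to the 8-cell stage (right), filled where the edgeR adjusted p was under 0.05, with dashed lines at 2-fold. Most members lie right of 0, towards higher levels at the later stage, with Vars farthest, and Fars2 lies farthest left.

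In MERVL-KD 2-cell embryos few synthetases differed from control. Iars was called lower and Tars2, the threonyl enzyme of mitochondria, higher, so that 2 of 39 members were called, 1 in each direction, beside 4.37% of all genes called higher and 2.24% lower (edgeR). At an adjusted p under 0.05 with any fold, 2 members were higher and 3 lower, beside 6.70% and 7.39% of all genes. The median was -0.01 over the members and 0.01 over all genes, and 21 of 39 members were lower than control. With library size alone as the scaling, the median of all genes moved by 0.29 and the members' median was -0.01 relative to it, with 8 members passing higher and 1 lower. In the same setting the share of higher genes among all called genes went from 66.1% to 85.3%.

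At the 4-cell stage the members that differed were all lower in MERVL-KD embryos. Iars and Lars were called lower, 2 of 39, beside 1.88% of all genes called lower and 2.66% higher (edgeR). With any fold, 6 members were lower and 0 higher, beside 5.84% and 4.92% of all genes, and 12 members had an unadjusted p under 0.05. The median was -0.16 over the members and 0.03 over all genes. All 6 belong to the multisynthetase complex, whose 11 listed genes had a median of -0.45, and the complex was not tested as a set. At the 8-cell stage Iars was called lower, 1 of 39, beside 1.06% of all genes called lower and 0.641% higher, and with any fold 3 members were lower and 0 higher, beside 3.56% and 1.50% (edgeR; 12 members had an unadjusted p under 0.05). The medians there were -0.18 and 0.01, and 31 of 39 members were lower. With library size alone the median of all genes moved by 0.13, the members' median was -0.18 relative to it and 1 member passed lower. In that setting the share of higher genes among called genes at the 8-cell stage went from 37.7% to 56.0%.

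**Figure D3:**
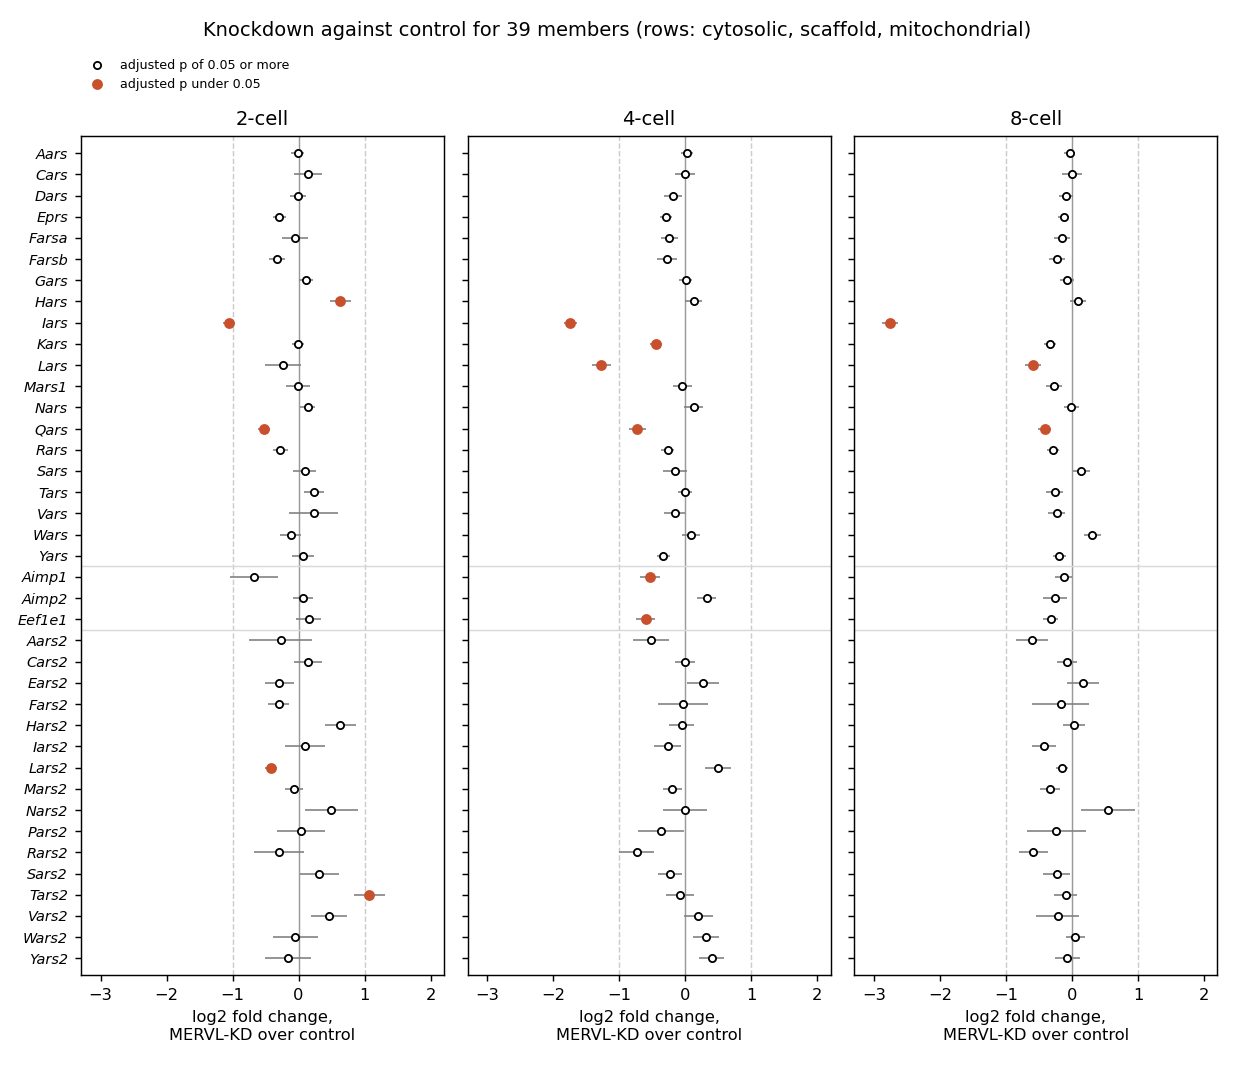
Log2 fold change ± SE of MERVL-KD over control for each member by stage, filled where the edgeR adjusted p was under 0.05, with dashed lines at 2-fold. Iars moves further left at each stage, from -1.06 to -1.74 and -2.76.

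Iars, the isoleucyl enzyme of the complex, was lower at every stage. Its level was 198 and 217 in the control libraries and 95.0 and 93.1 in the knockdown libraries of 2-cell embryos, 157 and 153 against 46.6 and 45.5 in 4-cell embryos and 129 and 119 against 17.9 and 18.4 in 8-cell embryos. The groups did not overlap at any stage, and the 2 knockdown libraries of a stage lay close together. MERVL-KD embryos held 45.4%, 29.7% and 14.7% of the control mean at the 3 stages. The log2 fold changes were -1.06 ± 0.09, -1.74 ± 0.10 and -2.76 ± 0.11 (edgeR adjusted p = 9.6e-07, 1.7e-06 and 1.4e-07). Per length, Iars was place 1 of the 20 cytosolic enzymes in control 2-cell embryos and place 2 in MERVL-KD ones, place 4 and place 16 in 4-cell embryos, and place 5 and place 20 in 8-cell embryos. The call held at each stage with any single library left out, and the value was short of 2-fold at the 2-cell stage with library size alone (-0.77).

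**Figure D4:**
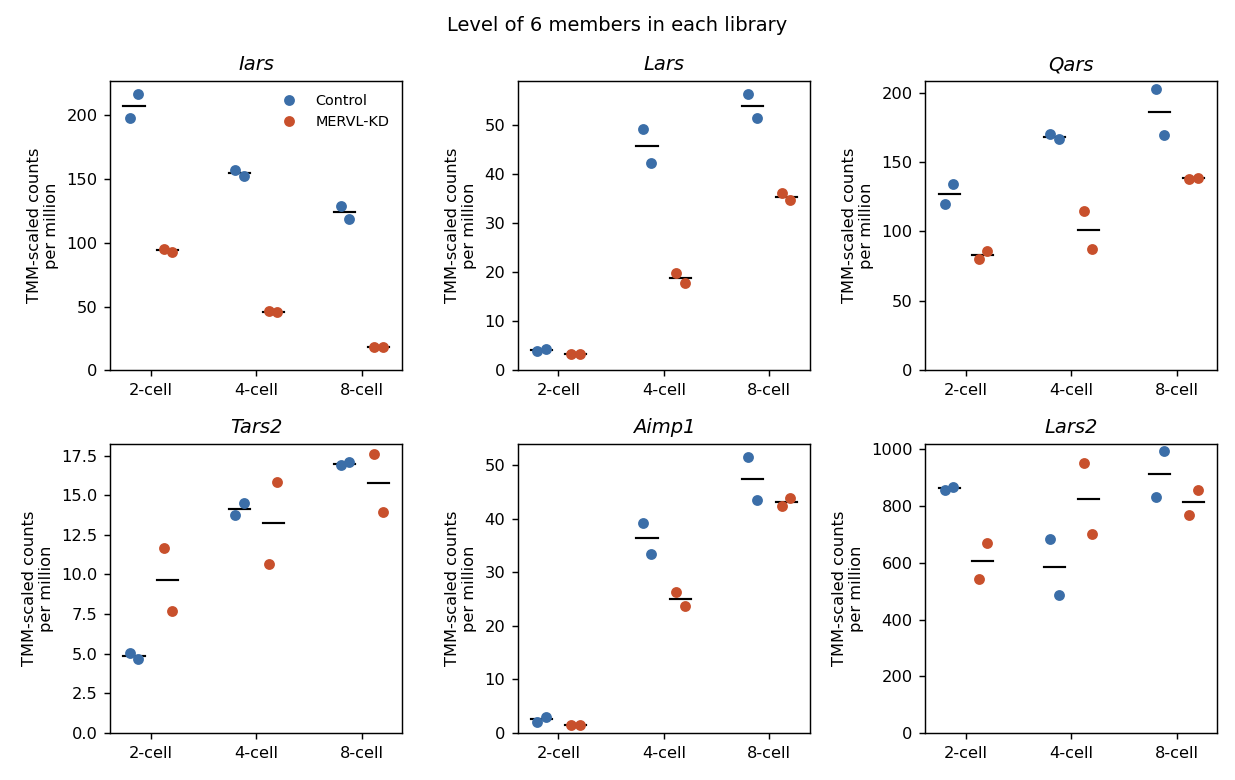
TMM-scaled CPM of Iars, Lars, Qars, Tars2, Aimp1 and Lars2 in each control (blue) and MERVL-KD (red) library by stage, with the group mean as a bar. Iars falls away from its control at each stage, whereas the groups of Tars2 are apart at the 2-cell stage and overlap afterwards.

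The effect on Iars grew between stages. Its log2 fold change differed by -0.61 ± 0.14 between the 2-cell and 4-cell stages (edgeR interaction contrast, adjusted p = 0.015), by -1.02 ± 0.14 between the 4-cell and 8-cell stages (adjusted p = 0.0018) and by -1.63 ± 0.14 over the course (adjusted p = 8.2e-07). The first of these was lost without control 2-cell library 1 (0.089), MERVL-KD 2-cell library 1 (0.065), control 4-cell library 1 (0.08) or control 4-cell library 2 (0.054), where the adjusted p of edgeR ranged from 0.014 to 0.089 over left-out libraries. In the interaction tests 2 of 39 members passed between the 2-cell and 4-cell stages, Iars and Lars (4.16% of all genes). Iars was the 1 member to pass between the 4-cell and 8-cell stages (0.624% of all genes) and the 1 member to pass over the course (4.03% of all genes). The count of 2 fell to 0 without control 2-cell library 1 or MERVL-KD 2-cell library 1, to 1 without either control 4-cell library, and rose to 4 without MERVL-KD 4-cell library 2. The count of 1 over the course became 2 without MERVL-KD 2-cell library 2. With library size alone the median of all genes moved by -0.30 for the first of the 3 contrasts and by -0.24 over the course. The members' medians were -0.12 and -0.15 relative to that median. The shares of higher genes among those that passed went from 60.5% to 15%, from 44% to 57.4% and from 59.4% to 22.7%.

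Lars, the leucyl enzyme of the complex, stood at 3.99 and 4.29 against 3.35 and 3.28 in 2-cell embryos, 49.1 and 42.2 against 19.9 and 17.9 in 4-cell embryos and 56.3 and 51.4 against 36.1 and 34.6 in 8-cell embryos. Both knockdown libraries were below both controls at each stage, by the widest margin relative to control at the 4-cell stage, but in 2-cell embryos without TMM both lay above both controls (0.05 with library size alone). The log2 fold changes were -0.24 ± 0.27, -1.27 ± 0.15 and -0.60 ± 0.12 (edgeR adjusted p = 0.64, 2.7e-04 and 0.017). The 8-cell value missed the threshold without control 8-cell library 1 (-0.53, adjusted p = 0.11; edgeR range over left-out libraries 0.0026 to 0.11) and with library size alone (0.058; range over the other alternatives 7.8e-04 to 0.058). Between the 2-cell and 4-cell stages the effect differed by -0.96 ± 0.22 (edgeR adjusted p = 0.017), a call lost without control 2-cell library 1 (0.071), MERVL-KD 2-cell library 1 (0.065) or control 4-cell library 1 (0.097; range over left-out libraries 0.02 to 0.097). In MERVL-KD embryos Lars thus still went from 3.35 and 3.28 to 36.1 and 34.6 over the course.

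Qars, the glutaminyl enzyme of the complex, stood at 119.8 and 134 against 80.4 and 85.8, 170.2 and 166 against 115 and 87.2 and 202 and 169 against 138 and 139 at the 3 stages. Again every knockdown library was below both controls of its stage. Its log2 fold changes were -0.53 ± 0.09, -0.73 ± 0.13 and -0.42 ± 0.10 (edgeR adjusted p = 0.0012, 0.0037 and 0.037), none of them 2-fold, and no difference between stages passed the test. The 8-cell value missed the threshold without control 8-cell library 1 (-0.28, adjusted p = 0.33; edgeR range over left-out libraries 0.0018 to 0.33), and the 2-cell value with library size alone (0.07; range over the other alternatives 1.1e-05 to 0.07).

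Kars and the scaffolds Aimp1 and Eef1e1 passed the test at the 4-cell stage alone. Kars stood at 127 and 145 against 132 and 124, 225 and 221 against 161 and 164 and 251 and 239.9 against 181 and 206 at the 3 stages, and its 4-cell change was -0.45 ± 0.09 (edgeR adjusted p = 0.0081). Aimp1 had 1.43 and 1.53, 26.4 and 23.7 and 42.3 and 44.0 in the knockdown libraries of the 3 stages, against the control values above, and a 4-cell change of -0.53 ± 0.15 (edgeR adjusted p = 0.041). Eef1e1 had 10.5 and 11, 26.0 and 30.4 and 46.0 and 44.0 in the knockdown libraries, and a 4-cell change of -0.60 ± 0.14 (edgeR adjusted p = 0.019). In all 3 genes both 4-cell knockdown libraries were below both controls. The 3 calls were lost without control 4-cell library 1, with adjusted p of 0.065 for Kars, 0.3 for Aimp1 and 0.1 for Eef1e1 (edgeR ranges over left-out libraries 0.004 to 0.065, 0.025 to 0.3 and 0.0036 to 0.1), and that of Aimp1 also without MERVL-KD 4-cell library 2 (0.092). At the 8-cell stage Kars passed the test when MERVL-KD 8-cell library 2 was left out (-0.43, adjusted p = 4.8e-04; edgeR, range 4.8e-04 to 0.29). The differences between stages did not pass the test for these genes, with -0.67 ± 0.20 for Eef1e1 between the 2-cell and 4-cell stages (edgeR adjusted p = 0.063), which passed without MERVL-KD 4-cell library 2 (0.024; range 0.024 to 0.24).

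Aimp2, the other scaffold, had 21.2 and 26.2, 29.2 and 29.4 and 18.9 and 25.7 in MERVL-KD libraries, with log2 fold changes of 0.07, 0.32 and -0.26 and no value past the test (lowest edgeR adjusted p = 0.19). Rars had 52.0 and 50.6, 148 and 146 and 152 and 144, each library below the controls of its stage (overlapping them in 2-cell embryos without TMM), with changes of -0.28, -0.27 and -0.29 (edgeR adjusted p = 0.12, 0.088 and 0.085). Its 2-cell change passed without control 2-cell library 1 (0.033; edgeR range 0.033 to 0.63) and its 8-cell change without MERVL-KD 8-cell library 1 (0.036; range 0.036 to 0.37). Cars had 10.9 and 7.92, 24.9 and 22.8 and 26.6 and 24.3, overlapping its controls at every stage. Vars had 2.14 and 1.78, 24.2 and 27.9 and 40.6 and 39.4, with changes of 0.23, -0.16 and -0.24 that did not pass the test. Hars, which charges histidine, passed the test as higher at the 2-cell stage (0.63 ± 0.16, edgeR adjusted p = 0.013), a call lost without control 2-cell library 1. Its later values of 0.12 and 0.09 did not pass. The 4-cell and 8-cell effects of Hars differed from the 2-cell effect by -0.43 and -0.47, which did not pass either (edgeR adjusted p = 0.24 and 0.20). Hars shares 7.97% of its exon bases with its neighbour Hars2 on the other strand, whose change was 0.64 ± 0.23 (edgeR adjusted p = 0.084).

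Over the whole cytosolic class, 1 of 20 members passed higher and 2 lower in 2-cell embryos, 4 lower in 4-cell embryos and 3 lower in 8-cell embryos, with medians of -0.01, -0.17 and -0.18 (edgeR). In the multisynthetase complex 2, 6 and 3 of 11 genes passed lower at the 3 stages and 0 higher, with medians of -0.24, -0.45 and -0.29. Of the scaffolds 0, 2 and 0 of 3 passed lower. Over all genes 6.70%, 4.92% and 1.50% passed higher and 7.39%, 5.84% and 3.56% lower. By catalytic class, 3 class I enzymes passed lower at each stage (of 19), while among the 17 class II enzymes 2 passed higher in 2-cell embryos, 1 lower in 4-cell embryos and 0 in 8-cell embryos (2 with an unadjusted p under 0.05). The knockdown comparisons and the control course share the control libraries, so their values are set side by side and not correlated.

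Among the mitochondrial enzymes 1 passed higher and 1 lower in 2-cell embryos, beside 6.70% and 7.39% of all genes, and 0 of 16 at the 4-cell and 8-cell stages, where 2 and 4 had an unadjusted p under 0.05 (edgeR). Tars2 stood at 5.07 and 4.68 in the control libraries and 11.6 and 7.66 in the knockdown libraries of 2-cell embryos, 13.7 and 14.5 against 10.7 and 15.8 in 4-cell embryos and 16.9 and 17.1 against 17.6 and 14.0 in 8-cell embryos. Both knockdown libraries were above both controls at the 2-cell stage, though far from each other, and the groups overlapped later. The 2-cell change was 1.07 ± 0.24 (edgeR adjusted p = 0.0066), and the call was lost without MERVL-KD 2-cell library 1 (0.72, adjusted p = 0.08; range over left-out libraries 6.2e-06 to 0.08) and fell short of 2-fold without control 2-cell library 2 (0.99) and in the fit of all 12 libraries (0.99). The count of 2 members called at the 2-cell stage became 1 in each of these cases. The difference from the 4-cell effect was -1.08 ± 0.33 and that from the 8-cell effect -1.10 ± 0.33 (edgeR adjusted p = 0.069 and 0.066). The first passed without MERVL-KD 2-cell library 2 (0.025) or MERVL-KD 4-cell library 2 (0.014), and the last without MERVL-KD 2-cell library 2 (0.022), within edgeR ranges of 0.014 to 0.34 and 0.022 to 0.34.

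Lars2 had 544 and 669.9 in MERVL-KD 2-cell, 953 and 699.8 in 4-cell and 769 and 858 in 8-cell embryos, against the control values given above. It was below both controls in 2-cell embryos, above both in 4-cell embryos and overlapped them in 8-cell embryos, and without TMM the 2-cell groups overlapped too. The changes were -0.42 ± 0.09, 0.50 ± 0.20 and -0.16 ± 0.09 (edgeR adjusted p = 0.0049, 0.17 and 0.39). The 2-cell value missed the threshold in the fit of all 12 libraries (0.13) and with library size alone (0.29), within an edgeR and DESeq2 range of 1.6e-05 to 0.29 over such alternatives. Without control 4-cell library 1 the 4-cell value passed (0.77, adjusted p = 5.3e-06; edgeR range 5.3e-06 to 0.69), as did its difference from the 2-cell effect (1.27 in place of 1.00, adjusted p = 0.0036 in place of 0.053; range 0.0036 to 0.29). The 8-cell value passed without MERVL-KD 8-cell library 2 (0.038; range 0.038 to 0.96).

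Of the other mitochondrial members with extreme levels or changes, Fars2 had 13.3 and 13.7, 2.31 and 3.07 and 1.59 and 2.15 in the knockdown libraries of the 3 stages, and Mars2 had 20.3 and 20.5, 28.2 and 27.0 and 25.6 and 33.4. Aars2 had 1.05 and 1.07, 5.16 and 5.08 and 5.54 and 4.67, and Wars2 had 2.35 and 1.84, 17 and 25.6 and 24.2 and 27.4. Nars2 had 1.54 and 1.81, 3.16 and 4.12 and 3.95 and 2.26, and Ears2 had 8.06 and 5.97, 10.8 and 9.55 and 8.28 and 9.08. None of these 6 genes passed the test at any stage (edgeR), although both knockdown libraries lay below both controls for Mars2 and Aars2 at the 4-cell and 8-cell stages and above them for Nars2 in 2-cell embryos. In 2-cell embryos the order of the groups turned on the scaling for Mars2, which was below both controls with TMM and above both without it, and for Fars2 and Ears2, which were below with TMM and overlapped without it. Mars2 passed at the 8-cell stage without MERVL-KD 8-cell library 2 (-0.54, adjusted p = 0.025; edgeR range 0.025 to 0.74).

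Many other genes host an ASO site in an intron. A site in the sense direction with at most 2 mismatches lay in an intron of 168 genes, of which 148 were tested in 2-cell, 139 in 4-cell and 133 in 8-cell embryos. Of these, 42, 52 and 42 were called lower in MERVL-KD embryos and 1, 1 and 0 higher (edgeR), beside 2.24%, 1.88% and 1.06% of all genes called lower and 4.37%, 2.66% and 0.641% higher, with median log2 fold changes of -0.53, -0.91 and -0.68. Iars was at rank 43, 41 and 24 among them, counted from the most reduced. Of 155 genes with a site on the other strand alone, 124, 120 and 102 were tested, 6, 6 and 3 were called lower and 2, 2 and 2 higher, with medians of -0.16, -0.17 and 0.00. The part of the intronic sites in the lower level of Iars was not tested.

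Around Iars, 19 genes of the files lie within 200 kb, of which 12, 9 and 8 were tested at the 3 stages and 5, 2 and 1 had an adjusted p under 0.05 (edgeR). Over all genes 6.70%, 4.92% and 1.50% passed higher, and 7.39%, 5.84% and 3.56% lower. Cenpp, a centromere protein gene that starts 29315 bp before Iars on the other strand, stood at 12.8 and 13.5 against 5.80 and 5.94, 16.3 and 18.0 against 8.24 and 7.22 and 17.1 and 16.1 against 9.09 and 7.44, with no overlap at any stage. Its log2 fold changes were -1.08 ± 0.19, -1.14 ± 0.20 and -1.0 ± 0.19 (edgeR adjusted p = 0.0011, 0.0035 and 0.013). Nol8, whose end lies 3084 bp before Iars on the same strand, passed the test at the 2-cell stage (-0.29, edgeR adjusted p = 0.034) with TMM scaling, whereas its mean CPM without TMM was nearly equal, 244.1 in control and 244.3 in MERVL-KD embryos. Its later values of -0.15 and 0.09 did not pass. At the 2-cell stage Ogn (-1.46, adjusted p = 0.0032) and Gm8674 (-4.05, adjusted p = 3.3e-09) were lower and Gm19334 (4.26, adjusted p = 1.1e-05) higher by edgeR. Gm8674 was lower in 4-cell embryos too (-3.35, edgeR adjusted p = 0.042), on raw counts of 46 and 14 against 4 and 2.

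**Figure D5:**
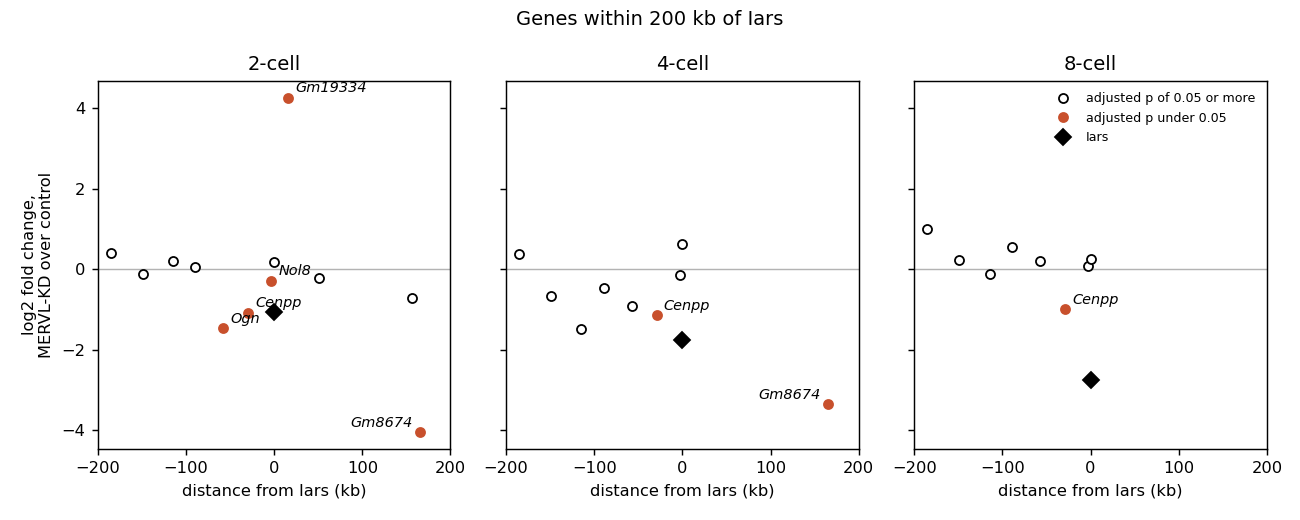
Log2 fold change of MERVL-KD over control for genes within 200 kb of Iars by distance from it in kb at each stage, filled and named where the edgeR adjusted p was under 0.05, with Iars as a diamond. Iars and Cenpp are lower at all 3 stages, while Nol8, the nearest gene before Iars, lies closer to 0.

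Promoters of the members were searched for the letters of 3 known motifs. RefSeq promoters (GRCm38) of 300 bases, 250 before and 50 after the start, were searched in 30 of 39 members. Those of Cars, Hars, Lars, Nars, Rars, Vars, Wars, Hars2 and Pars2 were not searched, so their motifs are not known here. The C/EBP-ATF response element (CARE, TGATGNAAN, either strand), known as a binding motif of ATF4, was in 5 of 30 promoters (Aars, Gars, Iars, Tars and Yars), that is in 5 of 13 cytosolic and 0 of 14 mitochondrial ones, beside 4.5% of 27025 genes. The E-box CACGTG, bound by MYC and its relatives, was in 5 of 30 (Aars, Ears2, Farsb, Iars and Tars), beside 8.09%. The NRF1 motif, GCGC and TGCGC with 1 base between them, was in 6 of 30 (Eef1e1, Farsb, Iars2, Kars, Mars2 and Tars), beside 5.19%. A match describes letters and not a bound site. The promoter of Iars, the member with the largest knockdown effect at the 4-cell and 8-cell stages, is shown from chr13:49681880-49682179 (plus strand) with capitals marking its E-box and then its CARE match on the other strand.
Iars promoter: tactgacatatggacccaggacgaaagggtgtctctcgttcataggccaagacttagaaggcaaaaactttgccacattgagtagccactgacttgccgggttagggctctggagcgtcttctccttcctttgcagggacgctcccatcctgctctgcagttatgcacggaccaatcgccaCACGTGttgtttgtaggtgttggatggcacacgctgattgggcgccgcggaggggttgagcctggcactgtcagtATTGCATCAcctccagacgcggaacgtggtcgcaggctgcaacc

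Genes of ATF4 and eIF2alpha signalling and genes that supply the tRNAs were read beside the members. Of 30 listed ATF4 genes and targets, 2 of 29 tested passed higher in 2-cell embryos, 4 of 29 in 4-cell embryos and 2 of 27 in 8-cell embryos, and 0 lower (edgeR), with medians of 0.13, 0.20 and 0.03 beside 0.01, 0.03 and 0.01 over all genes. Over all genes 6.70%, 4.92% and 1.50% passed higher, and 7.39%, 5.84% and 3.56% lower. Atf4 itself stood at 186 and 204 against 212 and 179, 135 and 145 against 133 and 159.6 and 158 and 165 against 179.8 and 189, and did not pass the test (0.09, 0.07 and 0.20; edgeR adjusted p = 0.64, 0.79 and 0.24). With library size alone its 2-cell value passed (0.38, adjusted p = 0.0096; edgeR and DESeq2 range 0.0096 to 1.00). Asns, which makes asparagine, had 1.02 and 0.991 against 2.71 and 2.57 at the 2-cell stage and rose by 1.48 ± 0.37 (edgeR adjusted p = 0.014), a call lost without control 2-cell library 2 (0.053; range 0.021 to 0.053). Its later values were 4.97 and 6.08 against 6.29 and 7.83 and 4.64 and 7.67 against 5.28 and 5.03, which did not pass. Of 9 listed eIF2alpha kinases and regulators, 1 passed higher and 2 lower in 2-cell embryos, 0 in 4-cell embryos (5 with an unadjusted p under 0.05) and 1 of 8 lower in 8-cell embryos. Those that passed lower were short of 2-fold, and the kinases Eif2ak1, Eif2ak3 and Eif2ak4 were not called at any stage. The kinase Eif2ak2 had 0.383 and 0.468 against 1.57 and 2.04 at the 2-cell stage, on raw counts of 12 and 17 against 66 and 72. It rose by 2.15 ± 0.48 (edgeR adjusted p = 0.007; 0.073 in the fit of all 12 libraries, range over alternatives 0.0012 to 0.073). Its 4-cell values were 0.397 and 0.591 against 0.906 and 0.467 and its 8-cell values, too low to be tested, 0.508 and 0.268 against 0.173 and 0.103.

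Among 25 genes of tRNA processing, 3 passed lower in 2-cell embryos, 1 higher and 3 lower in 4-cell embryos and 1 higher in 8-cell embryos (edgeR). The shares over all genes were 6.70%, 4.92% and 1.50% higher and 7.39%, 5.84% and 3.56% lower. Rtcb, the tRNA ligase, had 17.9 and 13.2 against 5.35 and 6.05, 36.8 and 39.5 against 12.4 and 8.82 and 26.0 and 30.9 against 18.8 and 26.0, and fell at the first 2 stages (-1.37 ± 0.21 and -1.84 ± 0.18; edgeR adjusted p = 3.2e-04 and 8.5e-05). Its 8-cell value (-0.34, edgeR adjusted p = 0.33) passed without MERVL-KD 8-cell library 2 (0.03; range 0.03 to 0.83). Rpp25, a subunit of RNase P, had 30.9 and 27.1 against 29.3 and 27.9, 7.04 and 5.07 against 21.0 and 17.2 and 11.2 and 7.44 against 12.6 and 10.1, and rose at the 4-cell stage (1.66 ± 0.22, edgeR adjusted p = 7.6e-04). Of 20 RNA polymerase III genes, 5 passed lower in 2-cell embryos, 4 in 4-cell embryos and 0 of 19 in 8-cell embryos (3 with an unadjusted p under 0.05), and none of them higher. Polr3a, its largest subunit, had 104 and 132 against 56.9 and 53.7, 194 and 208 against 122 and 125 and 179 and 154 against 135 and 132, with changes of -1.01 ± 0.11, -0.70 ± 0.09 and -0.31 ± 0.10 (edgeR adjusted p = 2.1e-05, 7.4e-04 and 0.099). The last of these passed without MERVL-KD 8-cell library 1 (0.047; edgeR range 0.047 to 0.56).

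Of the elongation factors, 1 of 8 tested passed lower in 2-cell embryos, 2 of 9 higher in 4-cell embryos and 0 of 8 in 8-cell embryos (2 with an unadjusted p under 0.05; edgeR). Over all genes 6.70%, 4.92% and 1.50% passed higher, and 7.39%, 5.84% and 3.56% lower. Eif5a2 had 6.44 and 5.51 against 7.80 and 5.68, 5.28 and 7.12 against 13.3 and 12.6 and 5.88 and 5.63 against 7.73 and 6.31, and rose at the 4-cell stage (1.07 ± 0.23, edgeR adjusted p = 0.011), a call lost without control 4-cell library 1 (0.057; range 0.0015 to 0.057). Of 11 mitochondrial charging and translation factors, 0 passed at the 2-cell and 8-cell stages (3 and 2 with an unadjusted p under 0.05) and 1, Mtif3, was lower at the 4-cell stage (edgeR). In the control course from the 2-cell to the 4-cell stage, 19 of 25 tRNA processing genes, 10 of 20 polymerase III genes and 6 of 9 elongation factors passed higher, and 2, 5 and 1 lower, beside 26.4% and 28.7% of all genes (edgeR).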

How the data were processed

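Total RNA of 12 pools of embryos was analysed, 2 replicates for each of 6 groups, and the replicates are separate pools. The authors aligned paired-end reads to GRCm38 with STAR 2.5.3a, kept unique alignments and deposited raw counts per GENCODE gene and per RepeatMasker family from featureCounts, with no normalization. Even values prevail among low counts, as when both mates of a pair are counted. Library totals ran from 28167085 to 41482526 counts, and a member's median raw count was 878.

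Members and lists were chosen with earlier results of these data known. Knockdown was tested at each stage in a fit of its 4 libraries, and the control course and the differences between stages in a fit of all 12, with edgeR 4.0.16 (filterByExpr, TMM, robust quasi-likelihood) in R 4.3.3. P-values were adjusted by Benjamini and Hochberg over all genes and repeat families, and a call needed an adjusted p under 0.05 and a 2-fold change, or for differences between stages an adjusted p under 0.05. Shares and medians over all genes leave out the repeat families. Printed levels use TMM factors of all 12 libraries (0.874 to 1.19), while each stage's fit used its own.

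Alternatives were DESeq2 1.42.0, its size factors within edgeR, library size alone, a minimum of 1 count, a minimum of 10 counts in every library, repeat families left out, a replicate block, a fit that was not robust, counts halved, all 12 libraries in one fit (knockdown), control libraries alone (course), each library left out, and TPM for levels. The code was tested on simulated data.

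Named with values in every library were Iars, members called at a stage, members with an adjusted p under 0.05 at 2 or more stages or in a difference between stages, the scaffolds, the 3 highest and 3 lowest per length of each class in control 2-cell embryos and the 3 largest control changes in each direction. Members past the test at 1 stage were named with the fold, and pathway genes when called, with Atf4. The ATAC-seq and MERVLi libraries were not analysed here.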

Additional observations from a re-analysis of the deposited data

Results flagged for a closer look

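The effect of MERVL-KD differed between stages, by edgeR's interaction contrast, in 10 cases among the named genes. Groups of 2 libraries allow no test for a library that stands apart.

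For Iars the log2 fold change differed by -0.61 between the 2-cell and 4-cell stages (edgeR adjusted p = 0.0155), by -1.02 between the 4-cell and 8-cell stages (adjusted p = 0.00184) and by -1.63 over the course (adjusted p = 8.21e-07). For Lars it differed by -0.96 between the 2-cell and 4-cell stages (edgeR adjusted p = 0.0175).

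Rpp25 differed by 1.67 between the 2-cell and 4-cell stages (edgeR adjusted p = 0.00217) and by -1.37 between the 4-cell and 8-cell stages (adjusted p = 0.0415). The second was lost without control 4-cell library 2 (0.13), MERVL-KD 4-cell library 1 (0.068), control 8-cell library 1 (0.19) or MERVL-KD 8-cell library 2 (0.079).

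Rtcb differed by 1.50 between the 4-cell and 8-cell stages (edgeR adjusted p = 0.0171), lost without control 8-cell library 1 (0.058). Over the course it differed by 1.10 (edgeR adjusted p = 0.0349), lost without control 2-cell library 1 (0.16), either MERVL-KD 2-cell library (0.13 and 0.051), either control 8-cell library (0.19 and 0.06) or MERVL-KD 8-cell library 2 (0.21).

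Asns differed by -1.65 over the course (edgeR adjusted p = 0.0399), lost without either control 2-cell library (0.11 and 0.12), either MERVL-KD 2-cell library (0.11 and 0.072), control 8-cell library 2 (0.19) or either MERVL-KD 8-cell library (0.082 and 0.072). Polr3a differed by 0.78 (edgeR adjusted p = 0.00666), lost without control 2-cell library 2 (0.051) or control 8-cell library 2 (0.069).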

How the results depend on the processing

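With a library left out, the lone library of a group is assumed to vary like the other groups. The 2 members called at the 2-cell stage became 1 with library size alone and 1 with all 12 libraries in one fit, and ranged from 1 to 2 over left-out libraries. Under every alternative run the counts were 2 for 4-cell embryos, 1 for 8-cell embryos and 0 for the control course between those stages (edgeR, 11 with an unadjusted p under 0.05, and 0 with DESeq2). The 25 members called in the control course to the 4-cell stage ranged from 24 to 26 over left-out libraries and from 25 to 27 over the other alternatives, and the 25 to the 8-cell stage from 24 to 27 and from 25 to 25.

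Of the differences between stages, the 2 members for 4-cell minus 2-cell became 5 with DESeq2, 7 with library size alone, 4 with a minimum of 1 count, 5 with a minimum of 10 counts per library and 4 with counts halved, and ranged from 0 to 4 over left-out libraries. The 1 member for 8-cell minus 4-cell became 2 with at least 1 count and was 1 without any one library. The 1 member for 8-cell minus 2-cell became 2 with DESeq2, 4 with library size alone, 2 with a minimum of 1 count, 2 with a minimum of 10 counts per library and 2 with counts halved, and ranged from 1 to 2 over left-out libraries. The cause was not tested.

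The median level per length of 2.11 became 2.57 as TPM over genes and ranged from 2.10 to 2.12 over left-out libraries. Kars at the 2-cell stage turned from 0.00 to 0.29 with library size alone, where the median of all genes also moved by 0.29. With a replicate block the counts were 2, 2 and 1 for knockdown, 25, 0 and 25 for the course and 2, 1 and 1 for the differences, and correlations between libraries of the same number were -0.0155, 0.000319 and 0.0125.

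Among values of named genes, 2211 of 2333 kept sign and side of the threshold under the other alternatives, 14 lost and 49 gained the threshold and 59 changed sign. Of these 59, 34 did so with library size alone, among them Lars and Mars2 at the 2-cell stage (0.05 and 0.22), and 1, Kars, then passed the threshold. With a library left out, 1120 of 1292 kept both, 50 lost and 14 gained the threshold, and 108 changed sign without passing it in either fit. Groups of 2 libraries and low counts of members such as Aars2, Nars2 and Vars at the 2-cell stage limit what can pass.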
